A study of Xenopus laevis with 30 samples.

Results

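The genes described here are 10 that respond to canonical Wnt signalling: axin2, lef1, tcf7, sp5, sp5l, nkd1, dkk1, notum, znrf3 and rnf43. They were chosen by name, as every row of both deposited count tables whose name without the ending .L or .S is one of these symbols. The rule found 16 of 49109 entries: axin2.S, lef1, lef1.L, tcf7.S, sp5.L, sp5.S, sp5l.L, sp5l.S, nkd1.L, dkk1.L, dkk1.S, notum.L, notum.S, znrf3.L, znrf3.S and rnf43.S. The endings L and S mark the homeologs, the gene copies that this allotetraploid frog holds from its ancestral genomes.

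The RNA came from animal caps of Xenopus laevis, the ectoderm cut from a blastula, which can form many tissues in culture. At the 2-cell stage every embryo, controls included, had received mRNA of noggin, a BMP antagonist, and of wnt8, a Wnt ligand, a pairing used to make neural crest progenitors. The NW explants received nothing more, and the NWS explants also received Sf3b4MO, an antisense morpholino that targets Sf3b4, a protein of the SF3b complex of the spliceosome. Caps were dissected at stage 8 to 9 and cultured for 8 hours, and ribosomal RNA was removed for some libraries (depleted) and left in for the others (undepleted), which gave 4 groups of 3 libraries: NW and NWS, each depleted and undepleted. The labels call the libraries biological replicates of explants. For undepleted NWS, one label field numbers only 2 replicates and gives library 2 in part to each; the run titles name 3 libraries and were followed, and every undepleted NWS value rests on that reading. All groups carry forced Wnt and noggin input, and no group without it was analysed here.

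In canonical Wnt signalling, a ligand bound to Frizzled and an LRP co-receptor stops the destruction complex from marking β-catenin for breakdown, and β-catenin then joins TCF/LEF proteins on DNA. Many of the genes this switches on act back on the pathway, as its DNA-binding partners or as brakes at the ligand, the receptor, Dishevelled or the destruction complex. In frog ectoderm a Wnt signal combined with lowered BMP signalling is known to induce neural crest.

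Member levels rested on few counts. Depleted libraries had 351902 to 3570364 counts in total and undepleted ones 3499960 to 4339788, but 5 dominant entries held 21.5% to 97.8% of each, and 87172 to 2803732 counts lay outside them. The 16 members together had 84 to 1235 counts per library. A floor of 3 counts stood for 0.268 to 7.58 CPM with depletion and 0.110 to 2.76 CPM without it, where CPM are counts per library size after TMM scaling within each preparation, a limit that covers counting error only. NW library 2 was the shallowest outside the dominant entries in the depleted preparation and NWS library 2 in the undepleted one. Values without libraries numbered 2 are therefore given beside some members where such a library was the extreme. They are not given for sp5.L, rnf43.S and znrf3.L, whose values may also move without those libraries. The morpholino's target does not check the labels, since its kind was not given in the sources used here: sf3b4.L and sf3b4.S gave log2 fold changes of 0.10 ± 0.97 (SE) and -0.87 ± 1.03 with depletion and of 0.34 ± 0.81 and -0.13 ± 0.83 without it.

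The comparison of NWS with NW asks how Wnt-responsive genes stood when Sf3b4 was targeted. Most of them had higher mean levels in NWS, and none passed the test. Of the 16 members, 12 had a higher mean CPM in NWS than in NW, 3 a lower one and 1 no count in the depleted libraries, where 40.0% of all entries with a count had a higher mean. In the undepleted libraries 12 were higher and 4 lower, where 43.6% of all entries with a count were higher. These shares take in entries with very few counts. Among entries that passed a filter on low counts, 48.5% with depletion and 47.9% without it had a log2 fold change above 0. The members counted as higher include dkk1.S, on 3 counts in depleted NWS library 3 and 2 in undepleted NWS library 2. With depletion they also include dkk1.L, which had at most 4 counts in any library. Summed over the members, NWS exceeded NW at every library number, by 2.23, 1.41 and 2.01 times with depletion and by 3.01, 1.37 and 1.87 times without it. The sums of the groups overlapped with depletion, at 110 to 303 CPM in NW and 222 to 426 CPM in NWS, and also without it, at 35.6 to 77.3 CPM and 66.9 to 107 CPM. A higher sum in NWS at every number was not particular to the members. It was also seen for the lists of Wnt ligands, receptors and modulators and of neural plate markers, in both preparations.

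**Figure D1:**
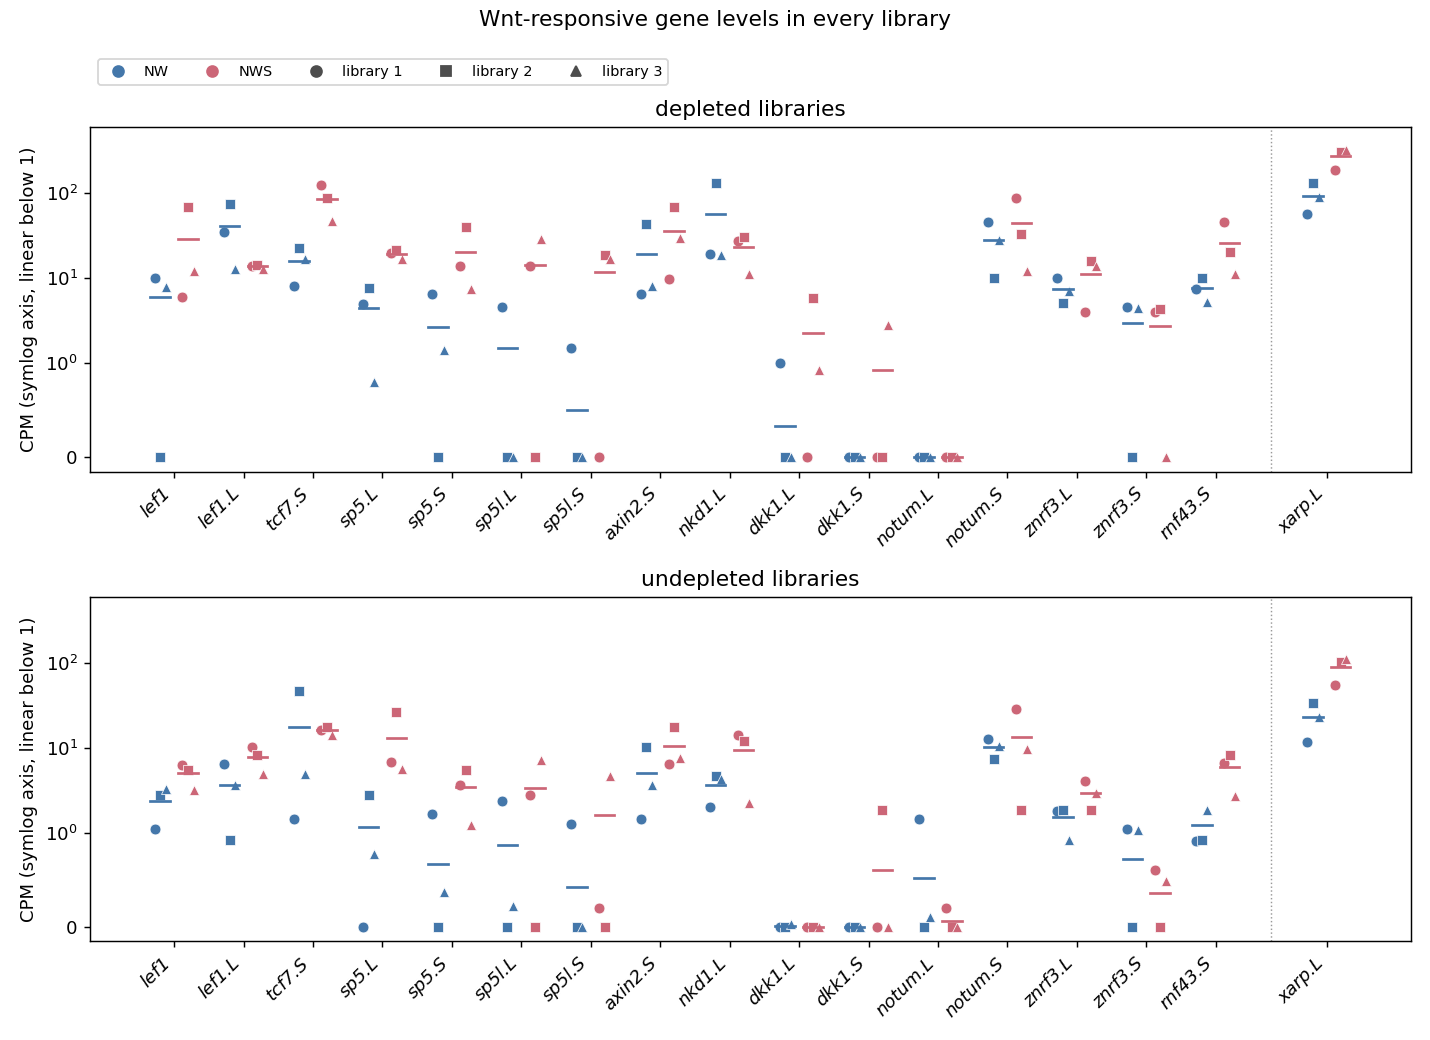
Level of each Wnt-responsive entry in CPM (symlog axis, linear below 1) in the depleted (top) and undepleted (bottom) libraries, NW in blue and NWS in red, with 1 symbol per library number and a bar at the mean of 3 libraries. xarp.L, right of the dotted line, is a copy of axin2 that carries another name. With depletion all 3 NWS libraries lie above all 3 NW libraries for tcf7.S, sp5.L (not tested there), sp5.S, rnf43.S and xarp.L. The gap with depletion was narrow for sp5.S (6.49 against 7.37 CPM) and for rnf43.S (10.1 against 11.1 CPM). Without depletion they do so for sp5.L, rnf43.S and xarp.L. Over all tested entries, 4.53% with depletion and 4.25% without it were higher without overlap.

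The filter on low counts (edgeR's filterByExpr, minimum count 10) passed 9 members with depletion and 10 without it, 8 of them in both. The entries sp5l.S, dkk1.L, dkk1.S, notum.L and znrf3.S passed in neither. With edgeR's quasi-likelihood test and an adjusted p under 0.05, 0 of 9 and 0 of 10 members passed. Over all entries tested, 0 of 6585 passed in the depleted libraries (0%) and 1 of 6284 in the undepleted ones (0.0159%). At an unadjusted p under 0.05, 2 of the 9 were higher in NWS, where 1.78% of all tested entries were, and 1 of the 10, where 2.04% were. In every pair of equal numbers, 4 of the 9 and 4 of the 10 were higher in NWS, where 13.1% and 11.7% of all tested entries were. DESeq2 without pairing called 0 members in either preparation, and 8 and 9 of all entries. With libraries of equal number paired, 0 members passed again, while 13 (0.197%) and 14 (0.223%) of all entries did. The tested members had a median log2 fold change of 1.05 with 7 higher and 2 lower in the depleted libraries, where all tested entries had a median of -0.03 and 48.5% were higher. In the undepleted libraries their median was 1.10 with 9 higher and 1 lower, against -0.04 and 47.9% for all tested entries. An entry can pass the filter through the group where it is high. So these medians, and the counts of members beside shares of all tested entries here and below, are a description and not a test.

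Among the DNA-binding partners of β-catenin, tcf7.S stood out with depletion. TCF7 is an HMG-box factor that binds Wnt response elements. With depletion tcf7.S stood at 7.99, 22.7 and 16.5 CPM in NW libraries 1, 2 and 3 and at 124, 86.0 and 47.0 CPM in NWS, on 9 to 185 counts. All NWS libraries lay above all NW libraries, as did those of 2 other tested members and, over all tested entries, 4.53%. The log2 fold change was 2.48 ± 0.78 (SE), below 0.05 before adjustment, with an edgeR adjusted p of 0.798, and of 0.278 when libraries were paired. Without depletion it stood at 1.46, 46.0 and 4.97 CPM in NW, against 16.3, 17.4 and 14.3 CPM in NWS. NW library 2, with 50 counts, was the highest of the 6, while NW libraries 1 and 3 were below every NWS library. The log2 fold change was -0.034 ± 0.86 there, 1.21 with the libraries paired, 2.27 without NW library 2 and 2.26 without both libraries numbered 2, with adjusted p of 0.9996, 0.9999, 0.661 and 0.893.

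LEF1, the other TCF/LEF member here, was represented by lef1.L and by an entry named lef1 with no ending. The reference gene table (Xenopus_laevis_v10.1) has lef1.L and lef1.S and no plain lef1, so which copy the plain name counts is not settled. The plain lef1 entry stood at 9.99, 0 and 7.76 CPM in depleted NW, against 5.89, 67.4 and 11.97 CPM in depleted NWS. The high NWS value was library 2, with 47 counts, and the groups overlapped. Undepleted libraries gave 1.10, 2.76 and 3.31 CPM in NW against 6.25, 5.49 and 3.21 CPM in NWS, and the groups overlapped by NWS library 3. The log2 fold changes were 2.096 ± 1.11 and 1.05 ± 0.98 (edgeR adjusted p = 0.999 and 1.00). The depleted value was 1.36 with the libraries paired, 0.49 without NWS library 2 and 0.048 without both libraries numbered 2.

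The lef1.L entry ran the other way with depletion. It stood at 34.9, 73.2 and 12.8 CPM in depleted NW, against 13.7, 14.3 and 12.9 CPM in depleted NWS. The NWS libraries lay close together, near NW library 3 and below NW libraries 1 and 2. They rested on 7, 10 and 14 counts, where the floor was 5.89, 4.30 and 2.76 CPM, so their closeness is uncertain. In the undepleted preparation the NW libraries had 6.40, 0.920 and 3.65 CPM and the NWS libraries 10.3, 8.24 and 4.94 CPM, higher in each pair of equal numbers, with 1 count in NW library 2. The log2 fold changes were -1.52 ± 0.88 and 1.00 ± 0.88 (edgeR adjusted p = 0.999 and 1.00). The depleted value of lef1.L was -1.21 with the libraries paired and -0.84 without both libraries numbered 2 as well as without NW library 2 alone. With the plain and the L entry summed, lef1 gave -0.10 ± 0.78 and 1.05 ± 0.73.

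The Sp factors are zinc-finger proteins that bind GC-rich DNA and are direct Wnt targets in vertebrate embryos. Of the tested members, sp5.L had the largest fold change without depletion and sp5.S with it, the latter within its SE of tcf7.S. Without depletion sp5.L stood at 0, 2.76 and 0.773 CPM in NW, against 6.85, 26.5 and 5.68 CPM in NWS, on 0, 3 and 21 counts against 34, 29 and 23. All NWS libraries lay above all NW libraries, as for 1 other tested member and 4.25% of all tested entries. The log2 fold change was 3.92 ± 1.16 (edgeR adjusted p = 0.601). Paired by number it was 3.77 ± 1.00 with an edgeR adjusted p of 0.0559, and DESeq2 with the same pairing, an alternative chosen after seeing the data, gave 3.86 with an adjusted p of 0.0167. That fit called 0.430% of all entries, and 0.471% in the depleted libraries, where it called 0 members. With depletion sp5.L stood at 4.99, 7.58 and 0.803 CPM in NW, against 19.6, 21.5 and 16.6 CPM in NWS, again without overlap. At 3 to 18 counts it did not pass the filter there and was not tested.

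The entry sp5.S had the same direction at lower counts. With depletion it stood at 6.49, 0 and 1.43 CPM in NW, against 13.7, 40.1 and 7.37 CPM in NWS, on 0 to 28 counts, and the groups did not overlap. The gap was narrow, between NW library 1 at 6.49 CPM and NWS library 3 at 7.37 CPM, on 13 and 8 counts. NW library 2 had 0 counts, where the floor was 7.58 CPM. The log2 fold change was 2.75 ± 1.23 (edgeR adjusted p = 0.999), 2.58 with the libraries paired and 1.43 without both libraries numbered 2. Without depletion it stood at 1.64, 0 and 0.368 CPM in NW, against 3.63, 5.49 and 1.23 CPM in NWS and was not tested. With both homeologs summed, sp5 gave 2.53 ± 0.95 with depletion and 3.28 ± 0.90 without it, and the edgeR adjusted p were 1.00 and 0.568.

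The sp5-like genes were detected in part of the libraries. The entry sp5l.L had 0 counts in all 4 libraries numbered 2. Its levels were 4.49, 0 and 0 CPM in depleted NW, 13.7, 0 and 28.5 CPM in depleted NWS, 2.38, 0 and 0.221 CPM in undepleted NW and 2.82, 0 and 7.16 CPM in undepleted NWS. NWS library 3 was the highest in both preparations, with 31 and 29 counts. Its homeolog sp5l.S had 3 counts in NW library 1 and 0 in the other depleted NW libraries, against 0, 13 and 18 in NWS libraries 1, 2 and 3. Without depletion it had 7, 0 and 0 counts in NW and 1, 0 and 19 in NWS. For sp5l.L the undepleted log2 fold change was 1.87 ± 1.29 (edgeR adjusted p = 1.00), and 2.54 ± 1.59 with the libraries paired. With the homeologs summed, sp5l gave 3.57 ± 1.36 with depletion and 1.88 ± 1.24 without it, both with edgeR adjusted p above 0.05, and 5.15 ± 1.69 and 2.63 ± 1.62 with the libraries paired (edgeR adjusted p = 0.261 and 0.999).

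The brakes on the pathway make up the rest. Axin2 is a scaffold of the β-catenin destruction complex. The entry axin2.S stood at 6.49, 42.9 and 7.94 CPM in depleted NW, against 9.81, 68.8 and 29.5 CPM in depleted NWS. Undepleted libraries gave 1.46, 10.1 and 3.68 CPM in NW against 6.45, 17.4 and 7.65 CPM in NWS. Library 2 was the highest of each group and NWS was above NW at every number, yet the groups overlapped. The log2 fold changes were 1.05 ± 0.95 and 1.14 ± 0.89 (edgeR adjusted p = 0.999 and 1.00), and 1.46 and 1.47 without both libraries numbered 2. With depletion the value was 2.28 without NW library 2 and 0.21 without NWS library 2, and without depletion 1.93 and 0.68.

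The axin2.S entry held a small part of the axin2 reads. The reference gene table gives axin2.L as the present symbol of xarp.L (Xenopus axin-related protein), an entry that the rule by name leaves out and that was looked up because of this. It had 37 to 1001 counts per library and 75.4% to 94.9% of the counts of both copies. The xarp.L levels were 55.9, 131 and 89.3 CPM in depleted NW, against 184, 300 and 321 CPM in depleted NWS. In the undepleted preparation the NW libraries had 11.7, 34.0 and 22.8 CPM and the NWS libraries 54.6, 102 and 110 CPM. The groups did not overlap in either preparation, where 4.53% (depleted) and 4.25% (undepleted) of all tested entries were higher without overlap. The log2 fold change was 1.56 ± 0.63 with depletion (edgeR adjusted p = 0.999, and adjusted p = 0.335 when paired). Without depletion it was 1.98 ± 0.63 (edgeR adjusted p = 0.820, and adjusted p = 0.0697 when paired). There DESeq2 with the pairing, the fit chosen after seeing the data, gave an adjusted p of 0.0368 and called 0.430% of all entries.

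Nkd1, which binds Dishevelled and dampens the signal, differed in direction between preparations. The nkd1.L levels were 19.0, 131 and 18.6 CPM in depleted NW, against 27.5, 30.1 and 11.1 CPM in depleted NWS. NW library 2, with 52 counts, was far above the other 5 libraries. Without depletion it stood at 2.01, 4.60 and 4.31 CPM in NW, against 14.3, 11.9 and 2.22 CPM in NWS. The log2 fold change was -1.26 ± 0.87 with depletion and 1.39 ± 0.90 without it (edgeR adjusted p = 0.999 and 1.00). The depleted value was -0.79 with the libraries paired, 0.23 without NW library 2 and -0.0028 without both libraries numbered 2. LOC108714955, which the reference table names nkd1.S, was at 14.4 ± 8.59 and 18.9 ± 31.2 CPM in depleted NW and NWS and at 2.61 ± 0.794 and 1.58 ± 2.00 CPM in undepleted NW and NWS (SD, n = 3 each). Its depleted NWS mean rested on library 1, at 54.9 CPM, with 0 and 1.84 CPM in libraries 2 and 3. The depleted log2 fold change of LOC108714955 was 0.28 ± 1.20 (SE), and -1.32 ± 1.39 with the libraries paired.

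Rnf43 and Znrf3 are membrane ubiquitin ligases that take Frizzled receptors off the cell surface. The rnf43.S levels were 7.49, 10.1 and 5.17 CPM in depleted NW, against 45.1, 20.1 and 11.1 CPM in depleted NWS. Undepleted libraries gave 0.914, 0.920 and 1.88 CPM in NW against 6.65, 8.24 and 2.71 CPM in NWS. Like those of sp5.L, which was tested only without depletion, the rnf43.S groups did not overlap in either preparation, on 1 to 58 counts. The gaps were narrow at this depth. With depletion NW library 2 stood at 10.1 CPM on 4 counts, against 11.1 CPM on 12 counts in NWS library 3. Without depletion NW library 2 had 1 count, and its floor of 2.76 CPM lay above NWS library 3 at 2.71 CPM. Over all tested entries 4.53% with depletion and 4.25% without it were higher without overlap, and the share in both was not counted. For rnf43.S the log2 fold changes were 1.78 ± 1.03 and 2.09 ± 1.03 (edgeR adjusted p = 0.999 and 1.00). LOC108707999, named rnf43.L in the reference table, stood at 3.22 ± 3.09 CPM in depleted NW and 11.9 ± 10.1 CPM in depleted NWS, and at 12.3 ± 18.0 and 3.46 ± 2.84 CPM without depletion, where NW library 2 held 36 counts (33.1 CPM) and the other NW libraries stood at 2.56 and 1.25 CPM.

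The znrf3.L levels were 9.99, 5.05 and 7.05 CPM in depleted NW, against 3.92, 15.8 and 13.8 CPM in depleted NWS. In the undepleted preparation the NW libraries had 1.83, 1.84 and 0.921 CPM and the NWS libraries 4.03, 1.83 and 2.96 CPM. The groups overlapped in both preparations, with log2 fold changes of 0.58 ± 1.13 and 1.06 ± 1.12 (edgeR adjusted p = 0.999 and 1.00). Its homeolog znrf3.S had at most 9 counts in 10 of the 12 libraries and 49 and 29 counts in NW library 3. That library was the deepest outside the dominant entries in each preparation. The entry znrf3.S did not pass the filter for NWS against NW in either preparation.

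Notum is a secreted enzyme that strips the lipid from Wnt ligands, and Dkk1 a secreted blocker of the LRP co-receptor. The notum.S levels were 45.4, 10.1 and 27.7 CPM in depleted NW, against 86.3, 33.0 and 11.97 CPM in depleted NWS. Without depletion it stood at 12.6, 7.36 and 10.5 CPM in NW, against 28.6, 1.83 and 9.63 CPM in NWS. NWS library 1 was the highest in each preparation, and the groups overlapped. The log2 fold changes were 0.60 ± 0.84 and 0.42 ± 0.79, and -0.34 and -0.70 without NWS library 1 (all edgeR adjusted p from 0.993 to 1.00). With the libraries paired they were 0.43 ± 0.85 and -0.029 ± 0.73. Its homeolog notum.L had no count in the 6 depleted libraries and at most 8 elsewhere. Of the dkk1 entries, dkk1.L had at most 4 counts and dkk1.S at most 3 in any library, so no difference was detectable at this depth.

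**Figure D2:**
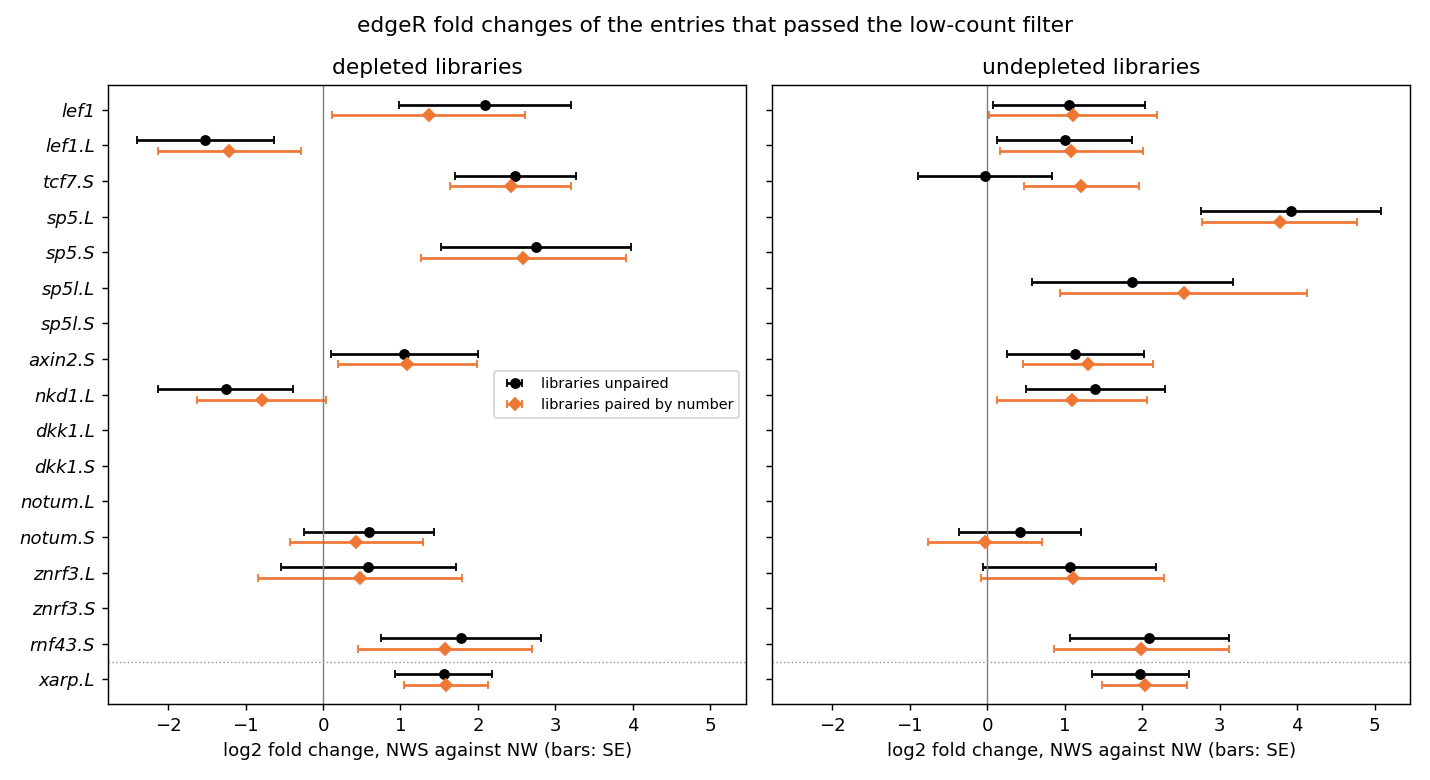
edgeR log2 fold change of NWS against NW, with bars for the SE, for the entries that passed the low-count filter, with libraries unpaired (black circles) and paired by number (orange diamonds), depleted left and undepleted right. Rows without a symbol were not tested; lef1.L and nkd1.L lie below 0 with depletion and above 0 without it, and tcf7.S moves from -0.034 to 1.21 without depletion when libraries are paired.

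Levels per length were compared by the deposited FPKM within each preparation. In depleted NW, nkd1.L (21.3 ± 25.0 FPKM) and lef1.L (15.2 ± 11.7 FPKM) led, and notum.S came next at 3.84 ± 2.51 FPKM (SD, n = 3). In depleted NWS, tcf7.S led at 10.8 ± 5.01 FPKM, before nkd1.L at 8.66 ± 3.74 and sp5.L at 7.55 ± 0.725 FPKM. In undepleted NW the leading members were tcf7.S at 2.25 ± 3.21, notum.S at 1.46 ± 0.429, lef1.L at 1.42 ± 1.12 and nkd1.L at 1.39 ± 0.505 FPKM. In undepleted NWS they were sp5.L at 5.31 ± 4.69, nkd1.L at 3.81 ± 2.61 and lef1.L at 3.103 ± 1.13 FPKM. Neighbours in each of these orders differed in mean level by less than the larger of their SDs. By the same measure xarp.L stood at 12.3 ± 5.25 and 36.7 ± 9.83 FPKM in depleted NW and NWS, and at 3.15 ± 1.53 and 12.7 ± 4.05 FPKM in undepleted NW and NWS.

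The homeologs shared the reads unevenly. In 12 of 12 libraries xarp.L had more counts than axin2.S, and notum.S more than notum.L. The lef1.L entry had more than the plain lef1 entry in 10 of 12, znrf3.L more than znrf3.S in 10 and equal counts in 1, and sp5.L more than sp5.S in 8. For rnf43, rnf43.S had more than LOC108707999 in 9 and nkd1.L more than LOC108714955 in 9. The lef1.L share of both lef1 entries, summed over libraries, was 69.4% in depleted NW and 33.0% in depleted NWS, 57.7% in undepleted NW and 61.5% in undepleted NWS. NWS library 2, at 17.5% of 57 counts, held most of the depleted NWS counts. How the authors' counting treated reads that match both copies was not given in the sources used here, so the split between copies is uncertain.

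**Figure D3:**
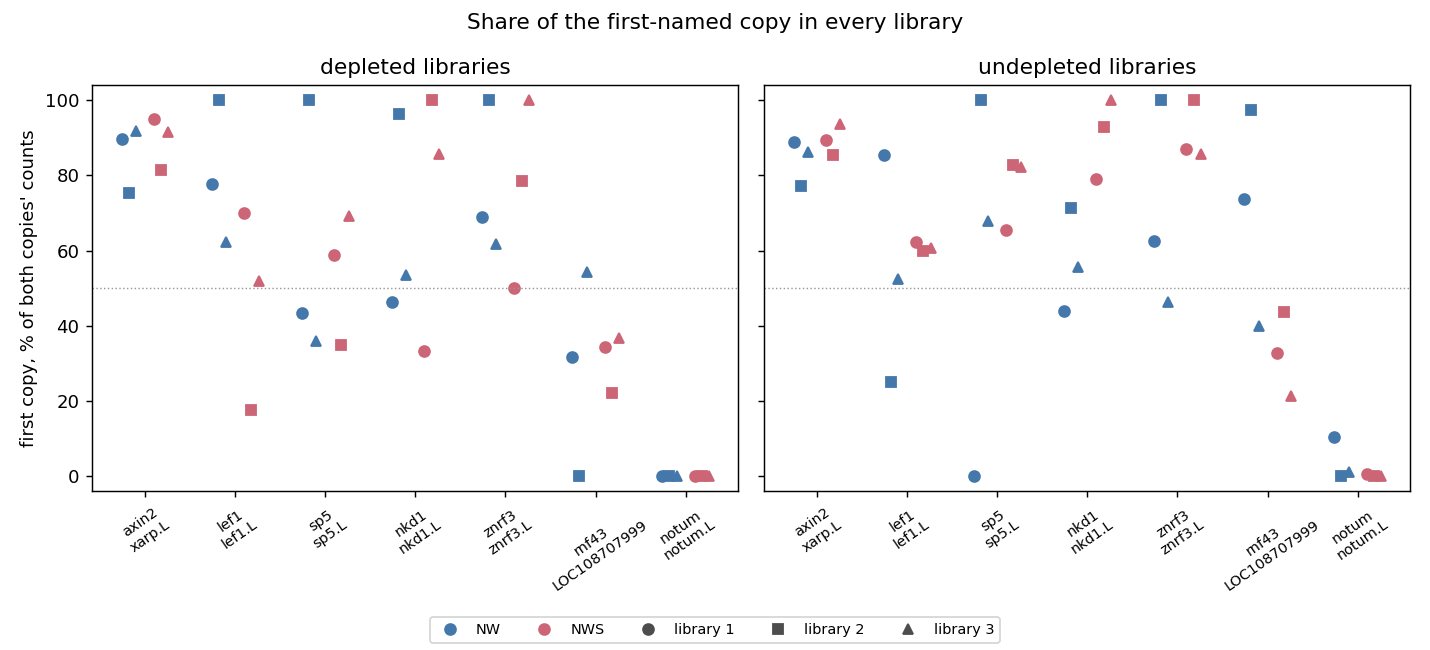
Share of the first-named copy in the counts of both copies (%), in every library, for axin2, lef1, sp5, nkd1, znrf3, rnf43 and notum, with the first-named copy under each symbol, NW in blue and NWS in red. xarp.L is above 75% everywhere and notum.L at most 10.4%, while the other shares spread widely between libraries.

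Whether the difference between NWS and NW itself differed between preparations was tested as an interaction over all 12 libraries. Of 13 members tested, 0 passed, and neither did any of 13224 entries (0%) with edgeR. At an unadjusted p under 0.05 there were 231 such entries, 0.839% of those tested toward a higher and 0.907% toward a lower value with depletion. Among the members, tcf7.S (2.38 ± 1.13) and nkd1.L (-2.67 ± 1.24) were below 0.05 unadjusted and lef1.L just above it (-2.52 ± 1.26), all with an edgeR adjusted p of 1.00. That fit took all 12 libraries as independent. Another fit paired the depleted with the undepleted library of the same treatment and number, which assumes shared explants that no label states. There the values were 1.15 ± 0.71, -1.83 ± 0.89 and -2.11 ± 0.97, and nkd1.L and lef1.L but not tcf7.S were below 0.05 unadjusted. Over all entries, 232 of 13224 were below 0.05 unadjusted in that fit. Unpaired and without the libraries numbered 2, the values were 0.36, -1.61 and -1.63, and 0 of 13 members were below 0.05 unadjusted. The NW libraries numbered 2 were among the extreme values in each of these: low-count NW library 2 was highest for lef1.L and nkd1.L with depletion and for tcf7.S without it.

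Depletion against no depletion was also compared within each treatment. In NW, 0 of 9 members passed, with 0.0376% of all entries called. Below 0.05 unadjusted were nkd1.L (log2 fold change 2.09 ± 0.92) and tcf7.S (-1.86 ± 0.92), both with an edgeR adjusted p of 1.00. Over all entries, 141 of 10633 were below 0.05 unadjusted. With depleted and undepleted libraries of equal number paired, nkd1.L and tcf7.S gave 1.45 ± 0.62 and -0.68 ± 0.62. In that fit nkd1.L alone of the 9 was below 0.05 unadjusted, where 215 of all 10633 entries were. Without depleted NW library 2, nkd1.L gave 0.72 and 0 of 12 members were below it, and tcf7.S gave 0.44 without undepleted NW library 2. In NWS, 0 of 12 members passed (0% of all entries), and 0 were below 0.05 unadjusted, with 76 such entries in all.

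With the counts of both preparations added up per treatment and number, a fit chosen after seeing the data, 0 of 12 members passed, and 0 of 9227 entries (0%). There 10 members were higher and 2 lower, with a median of 1.45 against -0.02 over all entries, of which 48.8% were higher. The highest were sp5l.S at 3.29 ± 1.54, sp5.L at 2.95 ± 0.93 (edgeR adjusted p = 0.638) and sp5.S at 2.66 ± 1.086, and the lower ones lef1.L at -0.37 ± 0.72 and nkd1.L at -0.33 ± 0.79. Paired by number, 0 members passed and 26 entries did (0.282%), with sp5l.S at 4.31, sp5.L at an edgeR adjusted p of 0.134 and tcf7.S at 1.62 ± 0.65 with 0.583. There lef1.L gave -0.26 ± 0.69 and nkd1.L -0.17 ± 0.70. If the preparations were made from the same explants, the added counts hold no further replicates.

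**Figure D4:**
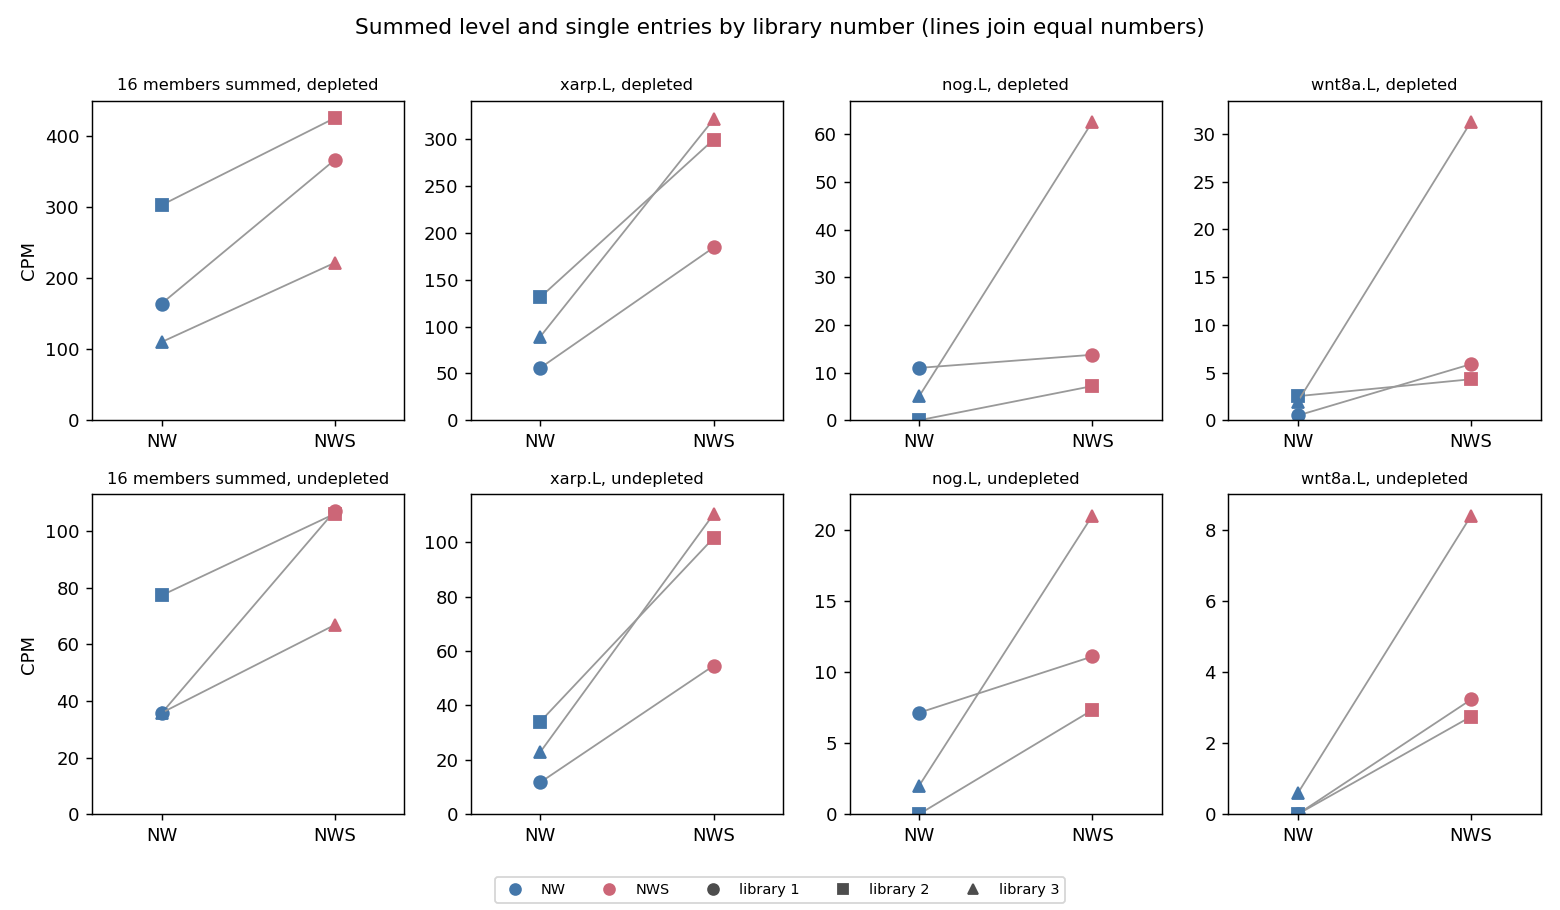
CPM of the 16 members summed, of xarp.L, nog.L and wnt8a.L in NW and NWS, depleted (top) and undepleted (bottom), with 1 symbol per library number and lines joining equal numbers; scales differ between panels. The summed members and xarp.L were higher in NWS at all 3 numbers in both preparations, as were nog.L and wnt8a.L, with NWS library 3 highest for nog.L and wnt8a.L.

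The L copies of the genes of the injected factors also had higher values in NWS. It was not tested whether reads of the injected mRNAs fall on nog.L and wnt8a.L. The entry nog.L, coding for noggin, stood at 10.98, 0 and 4.99 CPM in depleted NW, against 13.7, 7.17 and 62.6 CPM in depleted NWS, and at 7.13, 0 and 1.99 CPM against 11.1, 7.32 and 21.0 CPM without depletion. The wnt8a.L levels were 0.499, 2.53 and 1.96 CPM in depleted NW, against 5.89, 4.30 and 31.3 CPM in depleted NWS, and 0, 0 and 0.589 CPM against 3.22, 2.75 and 8.39 CPM without depletion. Both were higher in NWS at every number, and NWS library 3 was highest, as for sp5l.L. The S copies had few counts: nog.S had a mean of 1.22 CPM in NW against 0.614 CPM in NWS with depletion and 0.687 against 0.269 CPM without it, and wnt8a.S 0.0892 against 1.84 CPM and 0 against 0.0823 CPM. Its part in the member levels was not tested.

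Other genes of the pathway were read from lists. Among the 33 entries that carry β-catenin signal transduction, 21 were tested with depletion, with 8 higher, 13 lower and a median log2 fold change of -0.23, and 23 without it, with 11 higher, 12 lower and a median of -0.40. None passed, with or without the pairing. Those with the highest FPKM had fold changes smaller than their SE: ctnnb1.S, for β-catenin itself, at -0.10 ± 0.60 and 0.05 ± 0.57, ctnnb1.L at 0.06 ± 0.69 and 0.16 ± 0.69, csnk1a1, an entry with no ending for the casein kinase that primes β-catenin for breakdown, at 0.53 ± 0.69 and 0.23 ± 0.71, and csnk1a1.L at -0.29 ± 0.70 and 0.13 ± 0.66. These were the 4 highest in each preparation.

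TCF partners and corepressors gave 9 higher and 7 lower of 16 (median 0.10) and 7 higher and 6 lower of 13 (median 0.05), and none passed. The entry smarca4.S, for a chromatin remodelling ATPase, was at -0.36 ± 0.67 and -0.12 ± 0.60, and bcl9.L, for the β-catenin co-activator, at 0.21 ± 0.67 and 1.28 ± 0.66. The entry tle2.L, for a Groucho corepressor, gave -0.94 ± 0.80 with depletion.

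Wnt ligands, receptors and modulators gave 13 higher and 7 lower of 20 with depletion (median 0.88) and 12 higher and 8 lower of 20 without it (median 0.43). Of these, wnt7c.L, for a Wnt ligand, passed without depletion when libraries were paired (5.60 ± 1.27, edgeR adjusted p = 0.0126), and none did without the pairing. The entry fzd7.L, for a Frizzled receptor, was at 1.55 ± 0.84 and 1.57 ± 0.77 and fzd10.L at 0.85 ± 0.83 and 1.21 ± 0.82. For wnt1.L the values were 1.12 ± 0.79 and 0.03 ± 0.70. The entry ptk7.L, for a co-receptor of planar polarity signalling, gave -0.51 ± 0.72 with depletion, and sfrp2.S, for a secreted Wnt-binding protein, gave -3.05 ± 0.83 without it (edgeR adjusted p = 0.521).

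Other Wnt-induced and posterior genes gave 10 higher and 7 lower of 17 (median 0.27) and 9 higher and 8 lower of 17 (median 0.02), and none passed. Of the 46 entries of this list, 9 also stand in another list. Those of pax3 and msx1 and snai2.L are also among the neural crest markers, so these lists are not separate sets. The entry meis3.S, for a posteriorising homeodomain factor, was at 1.32 ± 0.70 and 0.79 ± 0.71, ccnd1.L, for cyclin D1, at 0.79 ± 0.84 without depletion, and snai2.L, a crest factor, at -0.94 ± 0.80 and -1.48 ± 0.77.

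**Figure D5:**
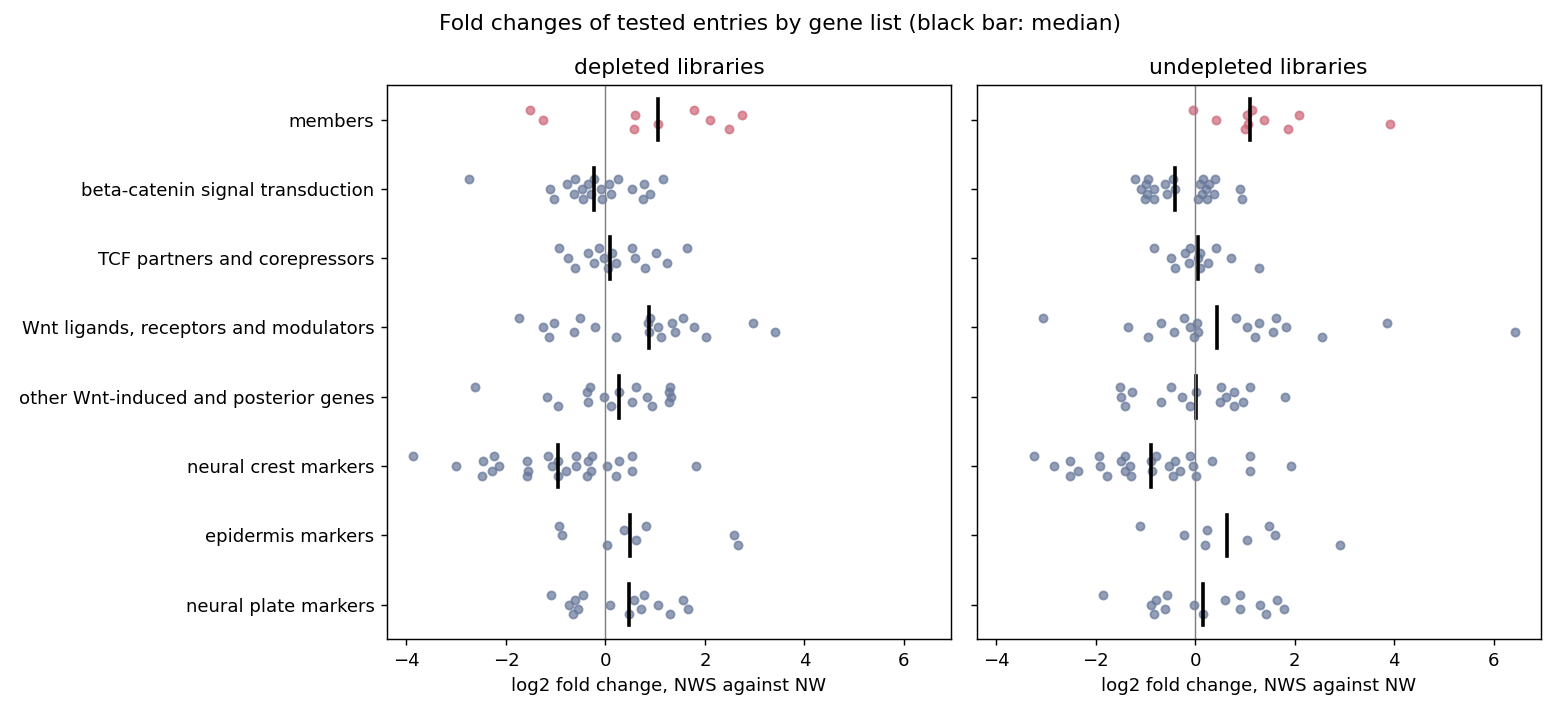
log2 fold change of NWS against NW for every tested entry of the members (red) and of 7 lists (blue), with the median as a black bar, depleted left and undepleted right. The members have medians of 1.05 and 1.10, signal transduction -0.23 and -0.40, and neural crest markers -0.94 and -0.89. Some entries of the lists stand in more than one list and are drawn in each.

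Neural crest markers were detected in every library, and neural plate and epidermis markers were detected beside them. Of 28 neural crest entries 27 were tested in each preparation, and they were lower in 21 and 22 of them, with medians of -0.94 and -0.89. Their summed level was 972 to 2856 CPM in depleted NW and 756 to 1672 CPM in depleted NWS, and 283 to 1011 against 185 to 556 CPM without depletion. With the pairing id3.L (-2.59 ± 0.64, edgeR adjusted p = 0.0386) and id3.S (-2.85 ± 0.64, adjusted p = 0.0106) passed with depletion, and sox10.S (-4.16 ± 0.94, adjusted p = 0.0126) and id3.L (-2.54 ± 0.60, adjusted p = 0.0167) without it. In bulk explants fewer cells of a type and less RNA per cell cannot be told apart.

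Neural plate markers gave 9 higher and 6 lower of 15 with depletion and 8 higher and 7 lower of 15 without it. Their sums were 482 to 871 and 514 to 1077 CPM in depleted NW and NWS, and 126 to 299 and 163 to 329 CPM without depletion. Epidermis markers gave 6 higher and 2 lower of 8 in each preparation, with summed levels of 85.4 to 460 and 150 to 648 CPM with depletion and 20.5 to 141 and 40.7 to 192 CPM without it. Of their 25 entries foxi1.L, foxi1.S and krt5.5.L were at 0 in all 12 libraries. Mesoderm markers, of which gsc.L, mespb.S and msgn1.L were at 0 in all 12, summed to 16.1 to 121 and 29.4 to 60.8 CPM with depletion and to 1.84 to 15.0 and 8.46 to 16.5 CPM without it, and that list holds wnt8a. Endoderm markers had 7 of 15 entries at 0, among them gata4.L, foxa2.L and hhex.L, with at most 25.5 CPM in sum, and 0 were tested. Cement gland and placode markers summed to 9.36 to 24.0 and 10.04 to 31.3 CPM with depletion and to 2.76 to 6.03 and 2.75 to 13.7 CPM without it, with agr2.L at 0 throughout. The part of these cell types in the member levels was not tested.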

How the data were processed

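RNA of 12 libraries was sequenced in 30 runs, which are lanes (3 per depleted and 2 per undepleted library). The tools STAR, featureCounts, bcl2fastq and DESeq2 are named in the submitters' processing notes, without version numbers. How multiply matching reads were handled, the strand setting, the annotation and the build were not given in the sources used here. Raw counts per gene, with lanes already summed, and FPKM were deposited by the authors in separate tables per preparation. Dividing counts by the deposited FPKM gave a scale within 0.000521% of median-of-ratios size factors, so total counts did not set it. FPKM served for levels per length and counts for all tests. Groups came from the labels' treatment, and p-values measure the spread between these libraries.

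The tests used edgeR 4.0.16 (R 4.3.3) with TMM scaling, filterByExpr (minimum count 10) and 1 quasi-likelihood fit per comparison with no covariate. Benjamini-Hochberg adjustment ran over all entries at 0.05. SE is the log2 fold change divided by the root of F. CPM scales of the preparations are separate and not comparable. DESeq2 1.42.0, with its own scaling, and limma-voom (limma 3.58.1), with TMM scaling, were alternatives on entries passed by the same filter. Others were edgeR with other scaling or filters, homeologs summed by name, or dominant entries (over 0.5% of a library's counts) left out. Also run were 1 fit of all 12 libraries and fits with each library left out. Summing by name did not join xarp.L, LOC108707999 or LOC108714955 to their copies. Adjusted p of 1.00 are rounded. Figures used Python 3.11.15 with matplotlib 3.10.9. The fits were run on simulated counts with known changes, and the check was on the direction of those changes. How many of them passed the test is not given here.

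After group means were subtracted, NW and NWS libraries of equal number correlated at 0.136, 0.227 and 0.140 (depleted) and at 0.179, 0.227 and 0.122 (undepleted), each above 0.1. Libraries of unequal number correlated at -0.154 to 0.0318 (depleted) and at -0.169 to 0.0096 (undepleted). Equal numbers were treated as pairs in the paired fits, which were alternatives to the unpaired ones, although no label says so. Paired values stand beside many member fold changes but not all, so a value without one may also move with the pairing. In the interaction and depletion comparisons, the pairs were instead the depleted and undepleted libraries of the same treatment and number. The correlations above do not bear on that pairing.

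The members, the gene lists and the tests were chosen with earlier results of these data known. All members are named, and of each other list the entries that passed in a fit and some of those with the highest FPKM. Of 16 members 15 are symbols of the reference gene table Xenopus_laevis_v10.1, used for names only. xarp.L, LOC108707999 and LOC108714955 were added from it as further copies.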

Additional observations from a re-analysis of the deposited data

How the results depend on the processing

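No member passed in any fit but 1: DESeq2 with the replicate block, chosen after seeing the data, called 1 member, sp5.L, without depletion, and 0 with it; edgeR with the replicate block called 0 in every comparison. Without any filter on low counts 0 of 15 and 0 of 16 members passed. The depleted members' median log2 fold change of 1.05 was 1.94 with no filter, 0.58 at a minimum count of 20, 1.42 with limma-voom, 1.79 in 1 fit of all 12 libraries, 1.43 without both libraries numbered 2, and 0.75 to 1.95 with single libraries left out; the members tested changed with the filter. The undepleted median stayed between 0.87 and 1.62 with single libraries left out. Without depletion tcf7.S changed sign from -0.034 to 0.11 with no filter, 1.21 with the replicate block, 0.028 with upper-quartile scaling, 1.82 with limma-voom, 0.054 without the dominant entries, 0.14 in the fit of all 12, 1.25 with DESeq2 and the block, 2.26 without both libraries numbered 2, and ran from -0.62 to 2.27 with single libraries left out. notum.S changed sign to -0.024 with limma-voom (depleted), to -0.029 with the block and -0.042 with DESeq2 and the block (undepleted), and ran from -0.34 to 1.12 and from -0.70 to 0.97 with single libraries left out. With single libraries left out, nkd1.L ran from -1.64 to 0.23 with depletion, and tcf7.S from -2.35 to 0.44 between preparations in NW. With both preparations summed, and single libraries left out, lef1.L ran from -0.77 to 0.11, nkd1.L from -0.73 to 0.98 and notum.S from -0.33 to 1.04, and without both numbers 2 lef1.L and nkd1.L were 0.18 and 0.86. The cause was not tested. Other named members kept their direction in every fit of NWS against NW. The number of all entries called ran from 0 to 24 (depleted) and from 1 to 26 (undepleted) with single libraries left out, 20 and 29 with no filter, and 31 and 27 with DESeq2 and the block. Member counts of 84 to 1235 per library limit what could be detected.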
